A study of Saccharomyces cerevisiae with 61 samples.

Results

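Topoisomerases I and II relieve the torsion that builds up when DNA is copied, transcribed or packed. Top1 nicks a single strand and lets the duplex swivel, whereas Top2 cuts both strands and passes another duplex through the break, which also allows it to untangle linked DNA molecules. In budding yeast both enzymes are found at promoters, and in meiosis they act on chromosomes that are being folded along a protein axis and cut by Spo11. The sites described here are those where a Top2 peak was called in meiotic cells and no Top1 peak touched it.

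The members are the intervals of the Top2 peak list that share no base with any interval of the Top1 peak list, on 12 chromosomes. Chromosomes I, III, VI and XII were left out. There were 806 such peaks among 2370 Top2 peaks on these chromosomes, which is 34.0%. The other 1564 peaks overlapped Top1 by at least 1 base and serve as the comparison. The whole Top2 list held 2759 peaks and the whole Top1 list 2234, of which 1924 lay on the 12 chromosomes.

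Top2 was immunoprecipitated with an antibody against the protein from wild-type (WT) cells of the SK1 background, a strain that enters meiosis efficiently and synchronously. Top1 was immunoprecipitated through a Myc tag from SK1 cells carrying TOP1-13MYC, a different strain grown in separate cultures. Both were sampled 3 h after transfer to sporulation medium at 30 °C and fixed with formaldehyde. Each list combines 2 replicates, each ChIP library with its own input, so a peak has 1 value and no replicate error. A further data type, spike-in read counts per chromosome, gave Top2 recovery in separate SK1 cultures, mixed with S288c cells, from Top2 ChIP and input libraries. Its groups were WT at 0 h and at 3 h (3 cultures each), rec8 and spo11 mutants at 3 h (2 cultures each), all at 30 °C, and WT and top2-1 mutants at 3 h and 34 °C (2 cultures each). REC8 encodes a subunit of meiotic cohesin, SPO11 the meiotic break enzyme, and the top2-1 allele makes Top2 sensitive to heat. The 34 °C cultures were kept in sporulation medium at room temperature for 1 h before the shift.

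The members were chosen by the called positions of Top2 and Top1 peaks, that is, by the overlap of both lists. For that reason their number, width, strength and distance to Top1 are given as descriptions with no test. The enrichment values are the authors' fold enrichment of ChIP over input for each peak, from combined replicates. Positions follow the SK1 assembly called Yue, counted from 1. The genes, promoters and sequences under the peaks were not analysed here.

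The peaks without Top1 were narrow. Their widths ran from 200 to 3605 bases, with a median of 349 bases and quartiles of 270 and 510 bases. The median of the Top2 peaks with Top1 was 560 bases, with quartiles of 341 and 1188 bases. The median width was lower in the peaks without Top1 on 12 of 12 chromosomes, at 323 to 414.5 bases against 474 to 703 bases. Of the 806 members, 77 (9.55%) were at least 1000 bases wide, against 491 of 1564 (31.4%) of those with Top1. As a result of their smaller number and width, the members held 22.0% of all bases in Top2 peaks on these chromosomes, or 389 kb of DNA.

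**Figure D1:**
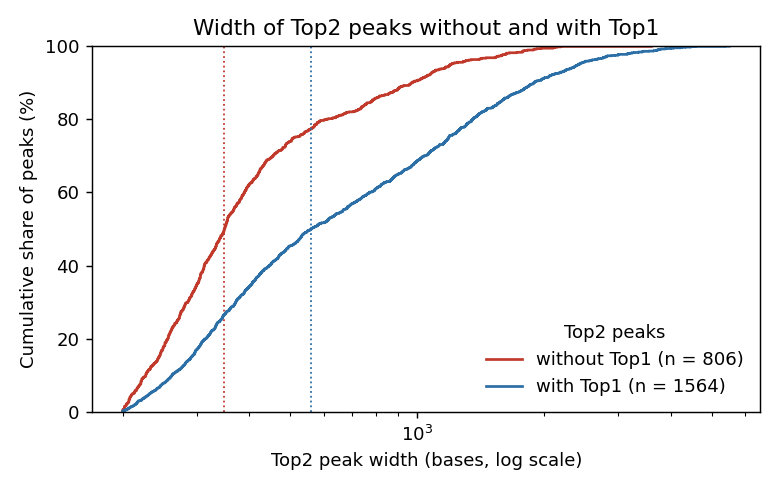
Cumulative share of Top2 peaks (y axis, percent) by peak width (x axis, bases, log scale) for the 806 peaks without Top1 and the 1564 with Top1. Dotted lines mark the medians of 349 and 560 bases, and the curve of the peaks without Top1 lies to the left.

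The widest members were exceptions to this. The widest lay near the right end of chromosome IX, from 412852 to 416456, and covered 3605 bases at a fold enrichment of 1.40. The next, on chromosome VIII from 184925 to 187117, covered 2193 bases at 1.53. The third, on chromosome XIII from 358675 to 360817, covered 2143 bases at 1.62. None of these 3 wide peaks was strongly enriched, and each lay at least 1301 bases from Top1.

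The members were also more weakly enriched. Their median fold enrichment was 1.45 (quartiles 1.33 and 1.63), against 1.64 (quartiles 1.44 and 1.94) for peaks with Top1. The median was lower on 12 of 12 chromosomes, at 1.34 to 1.55 against 1.57 to 1.72. The median −log10 q-value from the authors' peak caller was 8.76 against 19.3. Only 46 members (5.71%) reached a fold enrichment of 2, against 319 (20.4%) of the peaks with Top1. When all 2370 Top2 peaks were ranked by fold enrichment and cut into 5 equal groups, the share lacking Top1 went from 53.2% in the weakest group to 41.6%, 36.7%, 26.6% and 12.03% in the strongest.

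Because the categories differed in both width and strength, strength was also compared within width classes. Among peaks of 200 to 299 bases, 279 of 546 (51.1%) lacked Top1, and the median fold enrichment was 1.38 without Top1 and 1.42 with it. Among those of 300 to 399 bases, 45.2% lacked Top1, with medians of 1.56 and 1.66. Among those of 400 to 599 bases, 34.1% lacked Top1, with medians of 1.58 and 1.69. The narrow members thus came close to narrow peaks with Top1 in strength, and the quartile ranges overlapped widely.

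The gap opened among wide peaks. From 600 to 1199 bases, 122 of 495 peaks (24.6%) lacked Top1, with a median fold enrichment of 1.42 against 1.69 with Top1. At 1200 bases and over, only 41 of 423 (9.69%) lacked Top1, with medians of 1.45 and 1.83. In this widest class the upper quartile without Top1 (1.55) was below the lower quartile with Top1 (1.62). Fold enrichment was higher in wider peaks among the peaks with Top1 (Spearman's rho = 0.388 over 1564 peaks) and hardly among the members (rho = 0.156 over 806 peaks). Peaks within a list share libraries and are not independent, so these coefficients are descriptions. A wide interval also has more bases with which to touch a Top1 peak, and the part of that in the lower share of wide peaks was not tested.

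**Figure D2:**
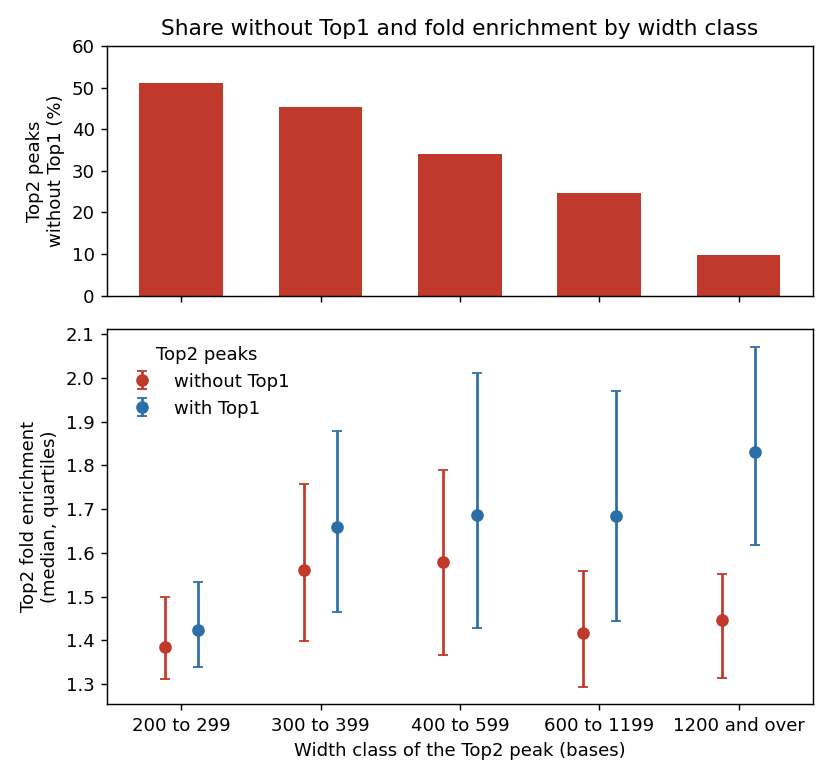
Upper panel, share of Top2 peaks that lack Top1 (y axis, percent) in 5 width classes (x axis, bases). Lower panel, authors' fold enrichment over input in the same classes, with points for medians and bars for quartiles. The share goes from 51.1% to 9.69%, and the medians differ little in the narrowest class (1.38 and 1.42) and most in the widest (1.45 and 1.83).

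A few members were among the strongest Top2 sites of all. The highest fold enrichment of a peak without Top1 was 3.24, on chromosome IX from 255219 to 255608, a peak of 390 bases. It ranked 3 among the 2370 Top2 peaks, and the nearest Top1 peak was 2027 bases away. The next was 2.80 on chromosome II from 114271 to 114615, which ranked 24 and lay 3083 bases from Top1. The third was 2.59 on chromosome XIV from 772967 to 773536, which ranked 49 and lay within 500 bases of Top1. These 3 peaks were 345 to 570 bases wide.

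The 46 members with a fold enrichment of at least 2 were spread over all 12 chromosomes. Their median width was 420.5 bases, against 342 bases in the weaker members. Their median distance to Top1 was 2212 bases, against 2192.5 bases in the weaker members. Chromosome IV held 13 of them, 11.7% of its members, and chromosome XVI held 7, or 11.1%. The other 10 chromosomes held 1 to 4 each, 2.08% to 6.25% of their members.

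Few members lay close to the edge of a Top1 peak. The edge-to-edge distance to the nearest Top1 peak ran from 95 to 20099 bases, with a median of 2192.5 bases and quartiles of 1396.5 and 3683 bases. Only 18 members (2.23%) lay within 500 bases of Top1 and 82 (10.2%) within 1000 bases. By 2000 bases the count was 359 (44.5%), by 5000 bases 688 (85.4%) and by 10000 bases 784 (97.3%). Extending every Top1 peak by 250 bases on each side turned 7 of the 806 members into overlapping peaks, leaving 799. For 633 members (78.5%) the nearest Top1 peak overlapped another Top2 peak, and neighbouring Top2 peaks were never closer than 804 bases. This keeps a member away from a Top1 edge that another Top2 peak covers, and its part in these counts was not tested.

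The 3 peaks closest to the boundary of the rule on each side were of modest strength. The 3 members nearest to Top1 lay 95 bases away on chromosome XVI (774764 to 775097), 96 bases away on chromosome XIV (362613 to 363542) and 110 bases away on chromosome II (228489 to 228871). Their fold enrichments were 1.51, 1.25 and 1.21. On the other side of the rule, the 3 Top2 peaks that shared the fewest bases with Top1 shared 2 bases on chromosome VII (641228 to 641440), 9 on chromosome IV (1047166 to 1047435) and 9 on chromosome X (518836 to 519143). Their fold enrichments were 1.34, 1.62 and 1.54. Such contacts were rare, since 6 of the 1564 peaks with Top1 shared under 50 bases with it. The median peak with Top1 had 78.5% of its bases covered by a Top1 peak.

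Top1 was about as near to the members as to other Top2 peaks, once the overlapping Top1 peak was set aside. For peaks with Top1, the nearest Top1 peak they did not overlap was at a median of 2077 bases (quartiles 1350 and 3204). The median was higher for the members on 8 of 12 chromosomes and lower on 4. Within 500 bases there was such a Top1 peak for 2.23% of members and 0.256% of peaks with Top1, and within 1000 bases for 10.2% and 8.12%. At larger distances the order turned, with 44.5% of members and 47.7% of peaks with Top1 within 2000 bases, and 85.4% and 90.5% within 5000 bases. No Top1 peak other than an overlapping one had its centre within 5 kb for 151 members (18.7%) and for 236 peaks with Top1 (15.1%). Neighbouring Top1 peaks were never closer than 802 bases on these chromosomes, which limits how short such distances can be for a peak that overlaps Top1. Neighbouring Top2 peaks were never closer than 804 bases, which limits them for a member whose nearest Top1 peak carries another Top2 peak.

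**Figure D3:**
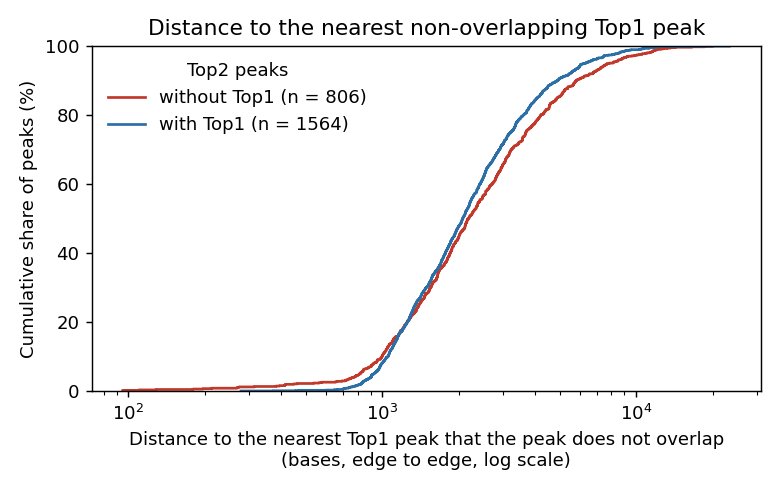
Cumulative share of Top2 peaks (y axis, percent) by edge-to-edge distance to the nearest Top1 peak that the peak does not overlap (x axis, bases, log scale). The curves of the 806 peaks without Top1 and the 1564 with Top1 run together up to about the medians of 2192.5 and 2077 bases, and the members reach farther above that.

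Strength showed no steady trend with this distance. The median fold enrichment was 1.46 in the 81 members under 1000 bases from Top1, 1.43 in the 276 from 1000 to below 2000 bases and 1.48 in the 331 from 2000 to below 5000 bases. In the 118 members at 5000 bases or more it was 1.41. From the nearest class to the farthest, 8.64%, 4.71%, 6.95% and 2.54% of members reached a fold enrichment of 2. The quartile ranges of all 4 distance classes overlapped.

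The Top1 peak nearest to a member was itself mostly shared with Top2. For 633 members (78.5%) it overlapped another Top2 peak, and for 173 (21.5%) it was a Top1 peak without Top2. On these chromosomes 375 of 1924 Top1 peaks (19.5%) lacked Top2, a share close to the latter. Members beside either kind had median fold enrichments of 1.45 and 1.44.

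Seen from Top1, the members lay mostly in the longer stretches between Top1 peaks. The 12 chromosomes had 1912 stretches between neighbouring Top1 peaks, with a median length of 3022.5 bases. Of these, 538 held at least 1 member, and those had a median length of 6720 bases. A member lay in 2 of 579 stretches under 2 kb, in 84 of 611 (13.7%) of 2 to 4 kb and in 245 of 473 (51.8%) of 4 to 8 kb. It did so in 160 of 201 (79.6%) of 8 to 16 kb and in 47 of the 48 longer ones. Relative to length, there were 0.483 members per 10 kb in stretches of 2 to 4 kb, 1.06 in those of 4 to 8 kb, 1.28 in those of 8 to 16 kb and 1.48 in the longest. Members are by the rule confined to Top1-free DNA, so that they occur there is no finding. With gaps between Top2 peaks of at least 804 bases, a short stretch whose edges shared Top2 peaks cover leaves little room for a member. The part of this in the trend with length was not tested.

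Most occupied stretches held a lone member. There were 380 stretches with 1 member, 97 with 2 and 61 with 3 or more. The lone members sat toward the middle, as 83.7% of the 380 had their centre in the central 50% of the stretch and 1.32% in its outer 10% at either end. The smallest gap of 804 bases between Top2 peaks keeps a member away from a stretch edge that a shared Top2 peak covers, and its part in this position was not tested.

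Spacing to the next Top2 peak was similar in both categories. The edge-to-edge gap from a member to the next Top2 peak on its right had a median of 2783 bases (quartiles 1641.5 and 4546), against 2550 bases (quartiles 1593.5 and 4176.5) from a peak with Top1. The ratio of these medians was 1.09, and centre to centre it was 0.997, so the direction depended on how spacing was measured. From a member to a following member the median gap was 3120 bases, and between successive peaks with Top1 it was 2424 bases.

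A member was followed by another member at a slightly higher rate than a peak with Top1 was. After a member, the next Top2 peak also lacked Top1 in 295 of 800 cases (36.9%), and after a peak with Top1 in 505 of 1558 cases (32.4%). The difference was 4.46 percentage points, and both shares lay close to the overall 34.0%. Subtracting opposite ends of the separate 95% binomial intervals of these shares gave -1.28 to 10.2 points. That range is wider than a 95% interval of the difference, covers counting only and treats linked peaks as independent. Of the 806 members, 340 (42.2%) had no other member as a neighbouring Top2 peak, some of them first or last on their chromosome. Another 200 came in 100 pairs and 266 in 71 runs of 3 or more. The share standing alone that the overall 34.0% would give was not computed. Members whose Top2 neighbours on both sides lacked Top1 (n = 124) had a median fold enrichment of 1.44, and those with 2 Top1-bearing neighbours (n = 332) had 1.46.

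The longest run lay toward the left end of chromosome XIV, from 29707 to 65274, where 9 Top2 peaks in a row lacked Top1. It fell in the longest Top1-free stretch of the 12 chromosomes, 40824 bases from 25916 to 66739. The fold enrichments along the run were 1.26, 1.39, 1.56, 1.18, 1.68, 1.37, 1.38, 1.68 and 1.42, and the widths were 265 to 854 bases. The 3 members farthest from any Top1 peak were the third, the fourth and the fifth peaks of this run. They lay 20099 bases from Top1 (46270 to 46640), 18617 bases (44533 to 45035) and 16566 bases (42482 to 42787). Their fold enrichments of 1.68, 1.18 and 1.56 covered nearly the range of the run, whose median of 1.39 compares with 1.45 over all members. Runs of 8 lay on chromosome VII from 31886 to 70011 and on chromosome XIV from 143905 to 176079.

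Chromosomes differed in how much of their Top2 lacked Top1. The share was highest on chromosome XIV, at 82 of 192 peaks (42.7%), and lowest on chromosome XVI, at 63 of 234 (26.9%). It was 38.7% on VIII, 38.1% on X, 38.0% on IX, 37.8% on II and 37.1% on XI. It was 34.1% on VII, 33.7% on XIII, 31.2% on XV, 30.2% on IV and 28.5% on V. In density, members numbered from 6.39 per 100 kb on chromosome V to 10.4 on XIV, and peaks with Top1 from 14.0 on XIV to 18.2 on XVI.

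Shorter chromosomes had somewhat more of their length in members. Chromosome length was taken as the last peak end in either list. The share of that length inside members ran from 2.61% on chromosome XVI to 5.62% on IX and correlated negatively with log10 length over 12 chromosomes (Pearson's r = -0.614, Spearman's rho = -0.601). The share inside peaks with Top1 went the other way (r = 0.530, rho = 0.601). The 2 shares mirrored each other across chromosomes (r = -0.923, rho = -0.853). Other measures of the members went with log10 length less strongly. For members per 100 kb, r was -0.316 (rho = -0.441), and for the share of Top2 peaks lacking Top1 it was -0.435 (rho = -0.510). The left-out chromosomes, among them the short I, III and VI, are not covered. All 12 points come from the same pair of lists, so these are descriptions.

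The range of the share was smaller along chromosomes than between them. Each chromosome was cut into 10 steps from its ends to its middle, with both arms combined. Steps pooled over chromosomes held 193 to 269 Top2 peaks, and single chromosomes held 100 to 368. The spread from counting was not set against these ranges. The share of Top2 peaks lacking Top1 was 37.7% in the outermost step, 38.3% in the next and 36.9% in the third, and 30.3%, 30.9%, 34.1% and 30.8% in the innermost 4. The outer 5 steps held 397 members at a share of 36.2%, and the inner 5 steps had a share of 32.1%. The outer part had the higher share on 8 of 12 chromosomes. Within 20 kb of an end there were 32 members (3.97%) and 59 peaks with Top1 (3.77%). Within 50 kb the shares were 12.3% of members and 9.59% of peaks with Top1, and within 100 kb 24.1% and 19.6%. Members in the outer 2 steps had a median fold enrichment of 1.41 and those farther in 1.46, with overlapping quartiles.

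**Figure D4:**
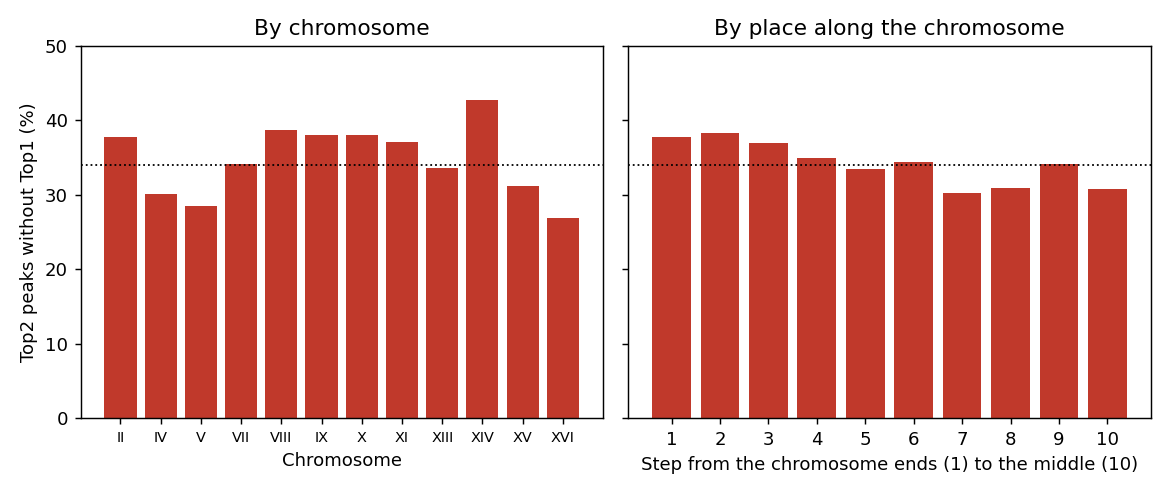
Share of Top2 peaks that lack Top1 (y axis, percent) on each of the 12 chromosomes (left) and in 10 steps from the chromosome ends to the middle, pooled over chromosomes (right). The dotted line marks the overall 34.0%. Chromosomes range from 26.9% to 42.7%, and the pooled steps from end to middle range from 30.3% to 38.3%.

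A separate measure of Top2 came from spike-in libraries, in which crosslinked S288c cells, also in meiosis, made up an added 20% before ChIP. These cultures played no part in the choice of members. For each culture, Top2 recovery of a chromosome was the log2 ratio of its share of SK1 reads in the ChIP to its share in the input. A value of 0 means an equal share in ChIP and input. The 6 libraries of WT at 3 h and 30 °C (3 cultures) held 1093634 to 3607968 SK1 reads. The counting error of a recovery value was at most 0.014 (standard error, log2 scale), and it covers counting only. All counts in both libraries of culture 1 were even numbers, as were those of WT culture 1 at 0 h and of spo11 culture 1. The label tags of culture 3 name the strain of the spo11 samples, while its title says WT. The tags of WT culture 3 at 0 h name that strain too and give 3 h as its time. Those of the top2-1 spike-in samples name the WT strain. The titles were followed throughout, so these cultures rest on their titles alone.

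Chromosomes richer in members had lower Top2 recovery. Chromosome VIII, with 5.06% of its length in members, had recoveries of -0.076, -0.088 and -0.068 in the 3 WT cultures. Chromosome X, at 5.58%, had -0.067, -0.051 and -0.021, and chromosome XIV, at 4.37%, had -0.030, -0.071 and -0.066. These 3 were the chromosomes below 0 in every culture. Chromosome IX, with the highest share of 5.62%, was mixed at -0.012, -0.031 and 0.0039.

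At the other end, chromosome V, at 3.40%, had recoveries of 0.048, 0.064 and 0.066. Chromosome XVI, at 2.61%, had 0.036, 0.057 and 0.028, and chromosome XI, at 3.60%, had 0.036, 0.075 and 0.046. With VII and XV these made up the 5 chromosomes above 0 in every culture. The SD between cultures was 0.0097 to 0.023 per chromosome, while the means ran from -0.077 to 0.059, so the order of the extremes exceeded the replicate spread.

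Over the 12 chromosomes, mean recovery correlated with the share of length in members at r = -0.743 (rho = -0.755), and with the share in peaks with Top1 at r = 0.676 (rho = 0.594). Since both shares mirror each other, the part of each could not be told apart. File names of the 3 cultures carry 3 different codes, which may mark sequencing runs. The coefficient for members was -0.798, -0.775 and -0.558 in these cultures. After both measures were adjusted for log10 length it was -0.748. With chromosomes I, III, VI and XII included it was weaker, at -0.448 over 16 chromosomes. Without chromosomes IX and X, the 2 farthest from the median share, it was -0.811.

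The same relation was seen in the other groups except the temperature-sensitive TOP2 mutant. The coefficient was -0.490 in WT at 0 h (3 cultures), -0.636 in rec8 and -0.727 in spo11 cultures (2 each, 3 h, 30 °C). It was -0.669 in WT at 34 °C and 0.154 in top2-1 at 34 °C (2 cultures each, 3 h). In WT at 0 h the coefficients were -0.698, -0.463 and -0.373, against -0.798, -0.775 and -0.558 at 3 h in cultures with the same file-name codes. Without culture 3, whose tags go against its title, the coefficient was -0.599 at 0 h, an alternative chosen after seeing the data, and -0.804 at 3 h. By culture, top2-1 gave 0.403 and -0.134, and the other 12 cultures gave -0.373 to -0.811. Both top2-1 cultures shared a file-name code with 5 other cultures. Among them were WT culture 3, in which the coefficient was -0.558, and the 2 rec8 cultures, at -0.628 and -0.641. No code was shared by top2-1 and WT at 34 °C, so the mutant and whatever the code marks cannot be told apart in that pair. The difference between groups was not tested. The top2-1 libraries held 613746 to 849480 SK1 reads, and recovery in them ran from -0.042 to 0.046. In WT at 34 °C recovery ran from -0.071 to 0.074. A narrow range, -0.036 to 0.020, was also seen in WT culture 1 at 0 h, where the coefficient was -0.698. Its ChIP and input libraries were deeper than those of top2-1, at 3489610 and 3017254 SK1 reads. The part of range and read depth in these coefficients was not tested. In the top2-1 inputs, chromosome XIV held 5.24% to 5.27% of SK1 reads, against 6.03% to 6.20% in the other inputs, and without chromosome XIV the top2-1 coefficient was 0.134.

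**Figure D5:**
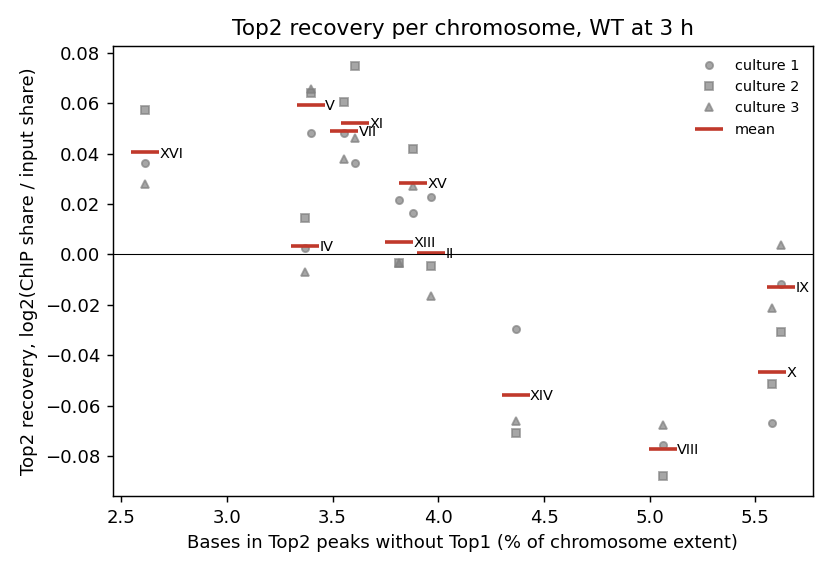
Top2 recovery of each chromosome in WT at 3 h and 30 °C (y axis, log2 of ChIP share over input share of SK1 reads) against the share of its length in Top2 peaks without Top1 (x axis, percent). Grey symbols are the 3 cultures and red bars their means, and the means go from 0.059 on chromosome V to -0.077 on chromosome VIII.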

How the data were processed

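The members and the measures described were chosen with earlier results of these data known. Per the submitters' processing notes, reads were aligned with Bowtie and peaks were called with MACS2 2.1.1. The peak-calling thresholds are not given in the sources used here, and the names of both lists carry different unexplained settings. The fold enrichment (a linear ratio of ChIP over input) and the −log10 q-value of each peak were used as deposited. Counts of reads assigned to each SK1 or S288c chromosome were deposited as raw values, not normalized. Samples were grouped by their titles.

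From these files, overlaps of at least 1 base, edge-to-edge distances, gaps and runs were computed with pandas 2.3.3, numpy 2.4.6 and scipy 1.17.1 in Python 3.11.15, and matplotlib 3.10.9 drew the plots. No filter was applied to the peaks besides the left-out chromosomes, so all 806 members entered. The end of the last peak of either kind stood for chromosome length, and SK1 shares were taken over 16 chromosomes. The read depth behind the peak lists is unknown here. No test was run, since each list combines its replicates. Over 2340 simulated peaks with known overlap and gap, 0 were misassigned. Peaks named in the text are the 3 highest in fold enrichment, the 3 widest, the 3 farthest from and the 3 nearest to Top1, the 3 Top2 peaks sharing the fewest bases with Top1, and the longest run. Runs and strong members beyond these were chosen after their values were seen. Alternatives were stricter overlap rules and peak thresholds, other chromosome sets, other distance measures and left-out cultures. Transcript levels and other tracks, including the untagged Myc control, were not used here.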

Additional observations from a re-analysis of the deposited data

How the results depend on the processing

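No paired analysis was possible because the peak lists hold no replicates and no groups were compared by a test. The spike-in correlation was computed within each culture, whose ChIP was paired with its own input. The number of members depended most on which peaks counted. It was 1375 when sharing needed a reciprocal overlap of at least 50%, 1356 with Top1 peaks of a fold enrichment of at least 1.3 only, and 333 with Top2 peaks of a fold enrichment of at least 1.5 only, against 806. Of the 1564 peaks with Top1, 556 (35.5%) overlapped a Top1 peak of a fold enrichment under 1.3. Under the same 3 settings, in that order, the median width was 399, 375.5 and 372 bases (349 as reported). The median distance to Top1 was 1104, 3422 and 2376 bases (2192.5 as reported). With reciprocal overlap, a Top1 peak that a member touched but overlapped by less entered as the nearest, with no distance. With the Top1 threshold, weaker Top1 peaks were left out of the distance. Neither is the same measure as the reported distance. Centre to centre, under the reported rule, the median distance was 2765 bases. The ratio of median widths, 0.623 as reported, was 0.739 with reciprocal overlap and 0.508 with the stricter Top2 threshold. In an alternative chosen after seeing the data, the ratio averaged 0.728 within 5 classes of fold enrichment with equal numbers of peaks. Fold enrichment still varied within a class. The difference in median fold enrichment, -0.19 as reported, was -0.14 with the stricter Top2 threshold and -0.12 within width classes. Members stayed narrower and weaker in each alternative run. The ratio of gaps to the next Top2 peak, 1.09 as reported, turned to 0.997 centre to centre. The correlation with Top2 recovery moved to -0.448 over 16 chromosomes. With 1 WT culture left out at a time it ran from -0.804 to -0.693, and with 1 chromosome left out, chosen after seeing the data, from -0.808 to -0.700. The excess of members after members was 1.33 to 8.15 percentage points, and that in the outer 2 steps 0.465 to 3.93 percentage points, over all alternatives. Merging peaks within 200 bases changed nothing, as no gap was under 800 bases. The depth behind the peak lists is unknown, so a missing Top1 peak says only that none was called.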
